A study of Polistes fuscatus with 17 samples.

Results

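Brain RNA of 5 Polistes fuscatus foundresses trained to faces was compared with that of 8 workers trained to faces, 13 of the 17 adult female brains in the series, each wasp being 1 library. The members were chosen by the titles: foundresses F25, F29, F35, F42 and F55, workers FW10, FW25, FW28 and FW47 from a non-natal nest of the same species (conspecific), and workers FW11, FW24, FW32 and FW44 from a nest of P. metricus (allospecific). Foundresses were taken in May 2012. Workers FW10, FW25, FW28, FW11 and FW24 were taken in July, and FW47, FW32 and FW44 in August. All 13 wasps had 40 trials in a T-maze with a negative reinforcer and were frozen 30 minutes after the last one, the workers having first lived on the foreign nest for at least a week. Only an adult age is labelled. Caste, season, age and rearing on a foreign nest therefore differ together, and their parts in any difference below cannot be told apart. The other 4 wasps of the series, foundresses F17, F3, F34 and F52 trained to patterns and collected in May or June, did not enter the fit and serve as foundresses on which no contig was chosen.

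Paper wasp foundresses are mated females that overwinter and begin a nest in spring, where they contest rank with other foundresses. Workers are their daughters, which emerge later in the colony cycle, forage and tend the brood. The castes of Polistes look much alike and are not fixed in the adult: a worker can take over reproduction when the queen is lost. Individual recognition by facial markings is known in P. fuscatus. RNA was counted on contigs, the assembled stretches of a transcriptome, and the deposited files do not pair contig identifiers with gene names (0 identifiers occur among the 13634 genes of the RefSeq table for assembly CU_Pfus_HIC). The labelled tissue and the castes could thus not be checked against marker genes. No contig below is given a function, and only the 2 higher and 2 lower ones that lead by size are given by identifier.

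Total counts ran from 14118986 to 20360420 in foundresses and from 16475310 to 20180047 in workers. The pattern-trained foundresses had 14.9 to 15.9 M (mega) counts, except F3 with 7.69 M. Levels are given as CPM, the counts of a contig per M counts of the library after TMM scaling. They are shares of reads, so a long contig has a higher CPM than a short one at equal molar level. The median correlation of log2 CPM with the wasps of the same caste, across 59811 tested contigs, was 0.953 to 0.966 in the foundresses and 0.963 to 0.973 in the workers. The common dispersion gave a coefficient of variation between wasps of 0.223 within the foundresses and 0.181 within the workers, a difference that was not tested. These values were 0.212 in the foundresses without F55 and 0.169 in the workers without FW28. FW28 and F55 were singled out in an earlier analysis of these data because they lay between the castes, and on the first principal component FW28 lay nearest to the foundresses of all workers. Among foundresses it was F25, at -17.2, and not F55, at -22.4, that lay nearest to the workers there. F25 and F55 were also the foundresses that correlated more with workers, by a median of 0.954 for F25 and 0.961 for F55, than with foundresses, 0.953 for F25 and 0.958 for F55. Results that rest on them are given with and without this pair of wasps, which was picked on the same measure as the caste difference, so a clearer separation without them is built into their choice.

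**Figure D1:**
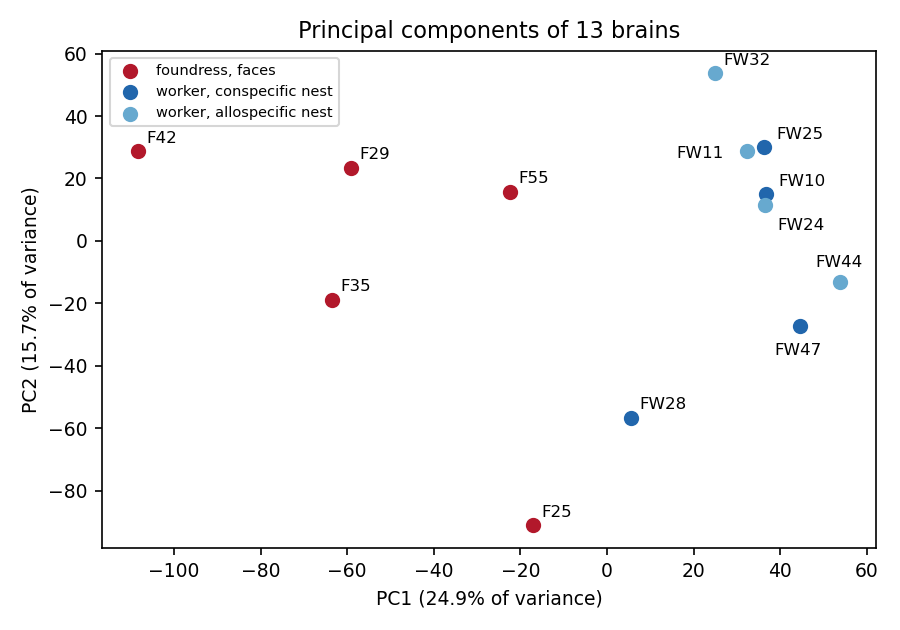
Principal components 1 and 2 of log2 CPM of the 13 brains, 1 point per wasp, coloured by group. The first component, with 24.9% of the variance, places the 5 foundresses between -108.4 and -17.2 and the 8 workers between 5.50 and 53.9, and FW28 at 5.50 is the worker closest to the foundresses.

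Foundresses and workers differed in 6147 of 59811 contigs, 10.3% of those tested, at a false discovery rate (FDR) of 0.05 in edgeR's quasi-likelihood test. Of these, 3157 were higher in foundresses, 5.28% of contigs tested, and 2990 were lower, 5.00%. Most differences were small. The median log2 fold change was 0.64 among contigs that rose in foundresses, 760 of which rose over 2-fold. It was -0.54 among those that fell, 351 of them over 2-fold. Over all tested contigs the median was 0.0053. A change of less than 1.5-fold was found in 3084 of the called contigs. Before adjustment, 16067 contigs (26.9%) had a p under 0.05. In a whole brain, fewer cells of a type and less RNA per cell cannot be told apart as the form of such a change.

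All 5 foundresses lay on one side of all 8 workers in 2067 contigs, 3.46% of those tested, and 1907 of these passed the FDR. Among those that passed, contigs lower in foundresses led, with 1108 against 799 that were higher. Without FW28 and F55 the separated contigs numbered 6015 of 60375, 9.96%, of which 5082 passed, and the balance turned to 2888 higher and 2194 lower in foundresses. No contig was present in every foundress at 1 CPM or more and under 0.1 CPM in every worker, and none showed the opposite. Called contigs were in part neighbours: 38% of the called contigs had a called neighbour by identifier, and in 1324 of 1417 pairs of called neighbours both moved the same way. All tested contigs formed 44314 pairs of neighbours. How many of these moved the same way, and the shares expected without grouping, were not computed, so these values are descriptions. Taking 1 contig per run of neighbouring identifiers left 15497 contigs, of which 2075 passed.

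The count depended on which wasps entered. It was 2798 without F42, 3014 without F35 and 4041 without FW44, 8028 without FW28 and F55, and 1493 when the pattern-trained foundresses shared the fit. With July workers alone it was 1037, with August workers alone 146, and scaling by library totals gave 2065 higher and 4217 lower contigs in place of 3157 and 2990.

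**Figure D2:**
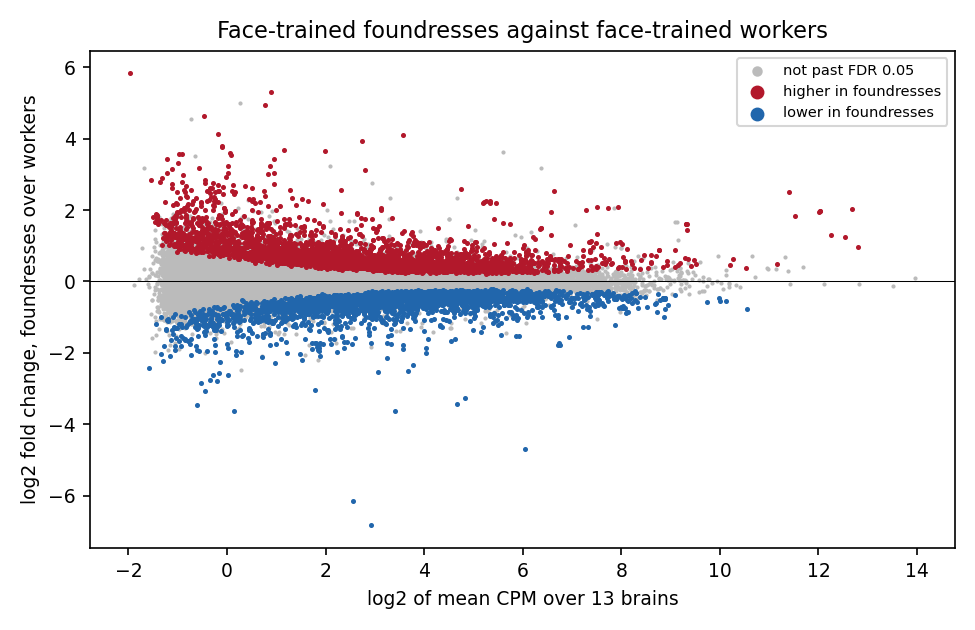
Log2 fold change of foundresses over workers against the log2 of the mean CPM over the 13 brains, 1 point per contig. Red points are the 3157 contigs that passed the FDR of 0.05 on the higher side, blue points the 2990 on the lower side, and grey points did not pass.

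The share of contigs that passed was largest among the most abundant ones on both sides. Among 9261 contigs under 1 CPM, 4.66% were higher and 1.55% lower in foundresses. At 1 to 4 CPM, 4.55% were higher and 2.98% lower, and among 303 contigs of 256 CPM or more 16.5% were higher and 17.5% lower. The median size of a higher call was 2.45-fold under 1 CPM and 1.52-fold at 256 CPM or more, and for lower calls it was 2.29-fold and 1.44-fold. The mean CPM was taken over more workers than foundresses. A contig high only in foundresses thus has a lower mean than one equally high only in workers, which favours higher calls at low CPM. Smaller changes can also pass at higher counts, so these shares and sizes are descriptions.

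The called contigs with the most reads were higher in foundresses, and a few of them took a large part of the library. The 10 called contigs of highest mean CPM were all higher. Of the 15 called contigs with the largest difference in mean CPM, 14 were higher and 1 was lower. These 15 held 6.08, 9.998, 8.94, 10.9 and 2.25% of all counts in foundresses F25, F29, F35, F42 and F55. In conspecific workers FW10, FW25, FW28 and FW47 they held 2.26, 1.70, 6.53 and 1.56%, and in the allospecific workers 2.76 to 2.88%. Thus 4 foundresses and worker FW28 were high, F55 lay among the other workers, and the castes overlapped. The mean share was 7.63 ± 3.51% (SD, n = 5) in foundresses and 2.92 ± 1.55% (n = 8) in workers. Without F55 and FW28 it was 8.97 ± 2.09% (n = 4) in foundresses and 2.40 ± 0.57% (n = 7) in workers. The contigs were picked for this difference, so no test is given for it. The pattern-trained foundresses, which had no part in the choice, held 12.3% (F17), 3.76% (F3), 15% (F34) and 6.06% (F52), each above every worker but FW28, while FW28 lay above F3 and F52.

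**Figure D3:**
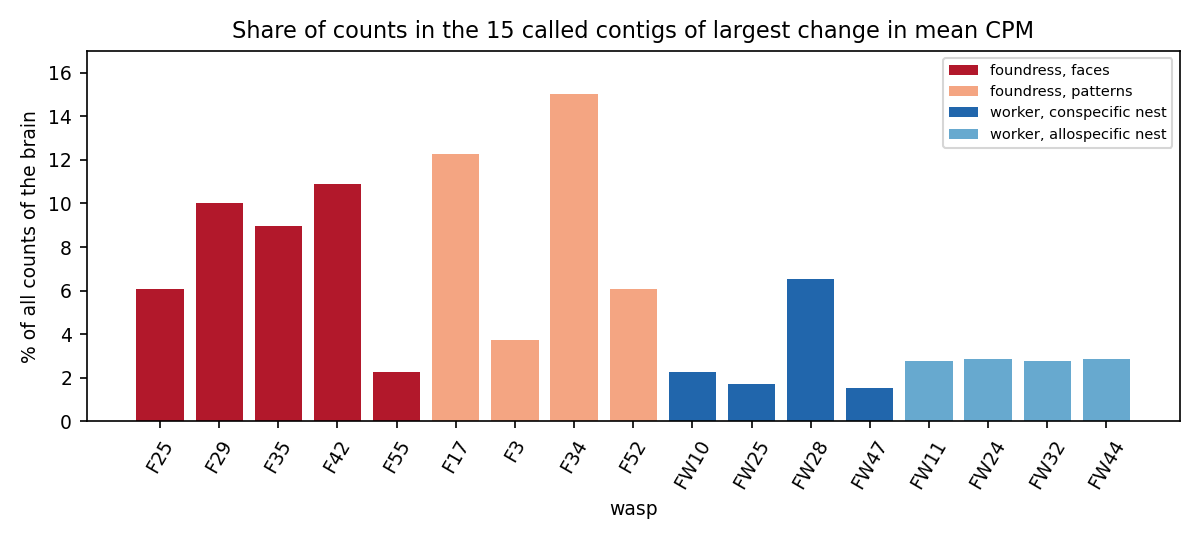
Share of all counts of each brain, in percent, held by the 15 called contigs with the largest difference in mean CPM, 1 bar per wasp. Foundresses trained to faces other than F55 hold 6.08 to 10.9%, workers other than FW28 hold 1.56 to 2.88%, FW28 holds 6.53% and F55 holds 2.25%.

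The contig with the largest difference in mean CPM shows the same split by wasp. It stood at 7615, 15320, 13590, 22900 and 2140 CPM in foundresses F25, F29, F35, F42 and F55. In conspecific workers it was at 2115 (FW10), 1345 (FW25), 9626 (FW28) and 1425 CPM (FW47), and in the allospecific workers at 2271 to 2652 CPM. The log2 fold change was 2.03 (SE 0.50, adjusted p = 0.02 in edgeR), with F55 in the range of workers and FW28 above F25. Without FW28 and F55 it was 2.88 (SE 0.23, adjusted p = 2.36e-05). The 14 higher contigs varied together, with a median correlation of 0.975 between pairs over the 13 wasps (lowest 0.612), given as a description, since the wasps share 2 castes and the contigs may share reads. Their log2 fold changes ran from 0.49 to 2.50, and from 0.55 to 3.68 without FW28 and F55. With all 13 wasps only 1 of the 15 contigs, the lower one, had castes that did not overlap. Without the pair all 15 did, beside 9.96% of all contigs, which the choice of both the contigs and the pair builds in. The 15 contigs fall into 10 runs of identifiers, and 2 sets of 3 contigs with neighbouring identifiers had almost equal levels within a set. In F25 one set stood at 5697, 5687 and 5613 CPM and the other at 864, 859 and 852 CPM. Whether the contigs of a set are separate transcripts or the same reads counted on related contigs was not tested.

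Among abundant contigs lower in foundresses, log2 fold changes were mostly smaller than in the higher contigs above, which were picked for a large difference. Over all called contigs of 256 CPM or more, the median sizes were closer, 1.52-fold for higher and 1.44-fold for lower calls. The lower contig with the most reads stood at 1244, 1057, 1027, 934 and 957 CPM in foundresses F25, F29, F35, F42 and F55. In workers it ran from 1523 CPM in FW28 over a median of 1785 to 2073 CPM in FW10, so the groups did not overlap. Its log2 fold change was -0.78 (SE 0.10, adjusted p = 0.00085 in edgeR), and -0.78 (SE 0.105) without FW28 and F55. The pattern-trained foundresses had 433 (F17), 1187 (F3), 1001 (F34) and 1189 CPM (F52), below every worker. The next 4 lower contigs by mean CPM, chosen like this one after the values were seen, had log2 fold changes of -0.57 to -0.46. The pattern-trained foundresses were not below the workers in all of these. At rank 2, F17 (1574 CPM), F3 (1082) and F52 (1019) lay within the workers' range of 987 to 1625 CPM. At rank 3, F17 had 1502 CPM, above the highest worker at 1437 CPM, and F3 (987.5) and F52 (922.6) exceeded the lowest at 915. F3 had 967 CPM at rank 4, where workers began at 941. F34 was below every worker at ranks 2 to 4, as were F17 and F52 at rank 4. At rank 5 all of them, at 655 to 1116 CPM, lay within the workers' 634 to 1215 CPM. Foundresses trained to faces also overlapped workers at ranks 4 and 5, reaching 1009 and 827 CPM.

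Over all called contigs, those higher in foundresses held 15.5 ± 3.96% of counts in foundresses (n = 5) and 8.41 ± 1.76% in workers (n = 8). Leaving out the 15 contigs of largest difference, they held 7.49 to 8.83% in the foundresses and 5.41 to 6.17% in the workers. Contigs lower in foundresses held 5.50 to 6.97% of counts in foundresses and 8.93 to 10.8% in workers. These ranges are descriptions, as the contigs were called on the same wasps.

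On average, libraries of foundresses were spread over more contigs and at the same time more concentrated at the top. At an equal depth of 14118986 counts, a contig with at least 1 count was expected for 98597 ± 1797 contigs in foundresses (SD, n = 5) and 95244 ± 1811 in workers (n = 8). The difference of 3353 had a two-sided p of 0.0101 in an exact permutation test over 1287 splits, with an adjusted p of 0.021 over 3 tests. The castes overlapped: F29 (96535) and F35 (97412) lay below FW28 (98180), and F29 also lay below FW47 (97357). The 10 contigs with most counts in each brain held 9.40 ± 2.83% of the counts in foundresses and 6.32 ± 0.83% in workers. This difference of 3.08 percentage points had an exact permutation p of 0.014 (adjusted p = 0.021). By wasp, that share was 7.19% in F25, 11.5% in F29, 10.1% in F35, 12.4% in F42 and 5.76% in F55, and in workers it ran from 5.04% over a median of 6.24% to 7.83% in FW28. Total counts were also compared, and their difference had an exact permutation p of 0.197.

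By size of change, the contigs that rose in foundresses were led by PfusTSAr1.0-057966 and PfusTSAr1.0-025557. These lead the 510 higher contigs that passed the FDR, had castes that did not overlap and reached a mean of 5 CPM in foundresses. PfusTSAr1.0-057966 stood at 3.50 CPM in F25, 41.7 in F29, 12.8 in F35, 3.97 in F42 and 13.7 in F55. In workers it ran from 0.347 CPM over a median of 1.90 to 3.16 CPM. The foundresses spread over a wide range, with F29 highest, and the lowest, F25, lay only just above the highest worker, FW32. Its log2 fold change was 3.12 (SE 0.53, adjusted p = 0.00376 in edgeR), and 2.28 (SE 0.43, adjusted p = 0.009) without F29.

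PfusTSAr1.0-025557 was at 11.4, 23.2, 16.5, 21.0 and 8.56 CPM in foundresses F25, F29, F35, F42 and F55. In workers it ran from 1.24 CPM over a median of 4.11 to 7.68 CPM in FW24, so F55 and FW24 lie next to each other across the castes. The log2 fold change was 2.05 (SE 0.33, adjusted p = 0.00268 in edgeR). Pattern-trained foundresses F17, F3, F34 and F52 had 37.5, 18.7, 3.31 and 22.0 CPM of PfusTSAr1.0-057966. All but F34 lay clearly above every worker. F34 had 44 of 14.91 M counts, and the highest worker, FW32 at 3.16 CPM, had 53 of 16.48 M. Pattern-trained foundresses were scaled over 17 libraries and workers over 13, so F34 and FW32 cannot be ordered here. Of PfusTSAr1.0-025557 the same foundresses had 29.7, 11.5, 17.8 and 12.1 CPM, each above every worker. With August workers alone neither passed in edgeR: PfusTSAr1.0-057966 had a log2 fold change of 3.30 (SE 1.01, adjusted p = 0.139), and PfusTSAr1.0-025557 had 2.66 (SE 0.53, adjusted p = 0.0678).

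On the lower side PfusTSAr1.0-023698 and PfusTSAr1.0-029153 led 891 contigs chosen in the same way, with the mean of 5 CPM taken in workers. Both were close to absent in foundresses, with 3 counts in all 5 brains for each. PfusTSAr1.0-023698 had 0.0629 CPM in F42, 0.110 in F55 and 0 counts in F25, F29 and F35. In conspecific workers it stood at 14.4 (FW10), 0.754 (FW25), 15 (FW28) and 63.6 CPM (FW47), and in the allospecific workers at 1.30 (FW11), 1.25 (FW24), 1.07 (FW32) and 0.496 CPM (FW44). Every worker lay above every foundress, but 3 conspecific workers made up nearly all of the worker mean.

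PfusTSAr1.0-029153 followed the same wasps. It had 0.146 CPM in F25, 0.0536 in F29 and 0 counts in F35, F42 and F55. Conspecific workers had 14.7 (FW10), 0.928 (FW25), 11.8 (FW28) and 47.0 CPM (FW47), while allospecific workers had 0.432 (FW11), 0.449 (FW24), 0.476 (FW32) and 0.645 CPM (FW44). The counts of 8 workers, pooled over library sizes, were 268.8 times those of foundresses for PfusTSAr1.0-029153 (95% exact interval 91.8 to 1305) and 342.7 times for PfusTSAr1.0-023698 (117.1 to 1663). These intervals cover counting error only and not the spread between workers. In edgeR the fitted log2 fold change of PfusTSAr1.0-023698 was -6.83 (SE 1.36, adjusted p = 0.0076). That of PfusTSAr1.0-029153 was -6.16 (SE 1.33, adjusted p = 0.0113). The fitted sizes moved with the design and the wasps: over the alternatives run, PfusTSAr1.0-023698 ran from -9.09 to -4.58 and PfusTSAr1.0-029153 from -8.75 to -3.56. With 1 mean per caste PfusTSAr1.0-023698 had -8.15, and PfusTSAr1.0-029153 had -7.79. Without F55 PfusTSAr1.0-023698 had -7.78, without FW47 it had -6.23, and without F25 PfusTSAr1.0-029153 had -7.18.

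Against allospecific workers alone edgeR gave PfusTSAr1.0-023698 a log2 fold change of -4.58 (SE 1.79, adjusted p = 0.136) and gave PfusTSAr1.0-029153 -3.56 (SE 1.80, adjusted p = 0.252). With limma-voom over all workers PfusTSAr1.0-023698 stood at -5.94 (SE 2.98, adjusted p = 0.217), while PfusTSAr1.0-029153 stood at -5.43 (SE 2.64, adjusted p = 0.202). Pattern-trained foundresses were as low as the other foundresses, at 0.0206 ± 0.0411 CPM for PfusTSAr1.0-023698 and 0.0394 ± 0.0456 CPM for PfusTSAr1.0-029153 (SD, n = 4).

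**Figure D4:**
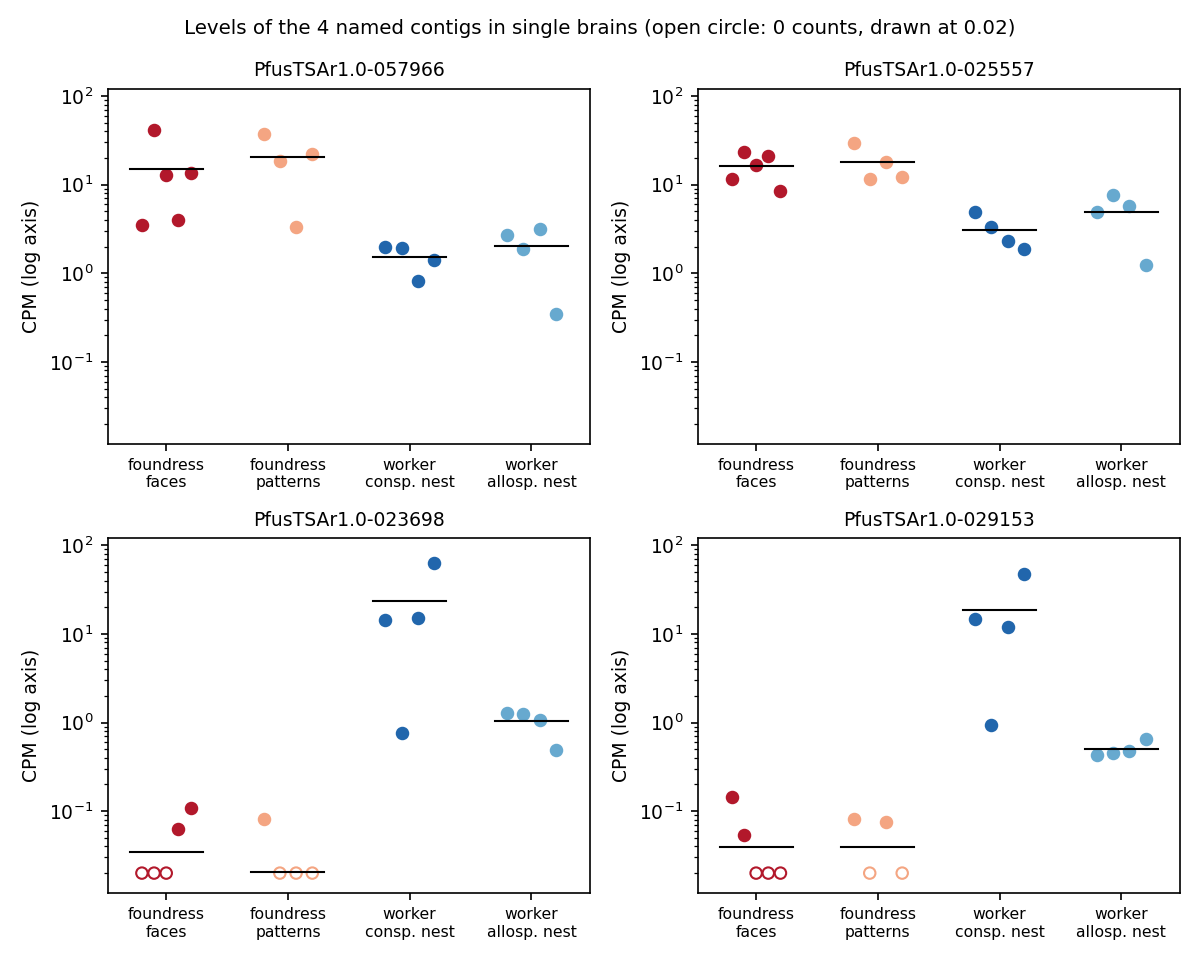
CPM on a log axis of the 4 contigs leading by size of change, 1 point per brain and a line at each group mean. In the upper panels both foundress groups lie above the workers, apart from F34 in the panel of PfusTSAr1.0-057966. There F34 (3.31 CPM, scaled over 17 libraries) lies too near FW32 (3.16 CPM, scaled over 13) to be ordered. In the lower panels foundresses have at most 0.146 CPM and conspecific workers FW10, FW28 and FW47 have 11.8 to 63.6 CPM.

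Some of the contigs that follow in this order were more even within the castes. They are described by rank without identifier, a choice made after their values were seen. The fourth lower contig had one of the smallest adjusted p of the comparison. It stood at 3.86, 4.13, 2.70, 3.71 and 3.24 CPM in foundresses F25, F29, F35, F42 and F55, and in workers it ran from 16.6 CPM in FW47 over a median of 41.1 to 61.9 CPM in FW11. The castes lay far apart, and the foundresses close to each other. Its log2 fold change was -3.44 (SE 0.26, adjusted p = 3.29e-05 in edgeR), with a mean of 32.0 CPM in conspecific and 46.0 CPM in allospecific workers. Pattern-trained foundresses had 6.14 (F3), 3.54 (F34) and 1.69 CPM (F52), and F17 had 14.97 CPM, close below the lowest worker.

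The eighth lower contig averaged 3.85 ± 1.03 CPM in foundresses and 19.7 ± 4.39 CPM in workers, with an adjusted p of 3.29e-05 in edgeR. The one ranked 10 averaged 5.71 ± 0.86 CPM in foundresses and 23.2 ± 6.14 CPM in workers, with the same adjusted p in edgeR. The third and the fifth, neighbours by identifier, were again uneven among workers. The third ran from 1.70 to 4.94 CPM in foundresses and in workers from 6.19 CPM in FW32 to 396 CPM in FW25. Its mean was 183.5 CPM in conspecific and 27.4 CPM in allospecific workers, and its log2 fold change over all workers was -4.69 (SE 0.80, adjusted p = 0.00347). F17 had 27.4 CPM of it, within the range of workers, against 1.81 to 2.37 CPM in the other pattern-trained foundresses.

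On the higher side the sixth contig had the smallest adjusted p of those ranked 3 to 10. It had 7.80, 6.91, 5.33, 6.11 and 6.47 CPM in foundresses F25, F29, F35, F42 and F55, and in workers it ran from 1.65 CPM over a median of 2.15 to 3.07 CPM in FW28. The log2 fold change was 1.56 (SE 0.14, adjusted p = 8.48e-05 in edgeR). In pattern-trained foundresses it was at 4.03 (F17), 2.88 (F3), 8.43 (F34) and 6.74 CPM (F52), so F3 fell inside the range of workers. The third higher contig had 13.5 to 23.4 CPM in foundresses and 1.89 to 10.2 CPM in workers, FW28 being the highest of these.

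Set against each worker group in the same fit, foundresses differed in 1714 contigs from conspecific workers (2.87% of those tested, 737 higher and 977 lower) and in 3794 from allospecific workers (6.34%, 1812 higher and 1982 lower). Both counts share the 5 foundresses and are given side by side, and a difference between them was not tested. Without FW28 and F55, a setting added after the data were seen, they were 4017 for the conspecific group (2488 higher, 1529 lower) and 5558 for the allospecific group (3118 higher, 2440 lower).

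Contigs called on one set of wasps were then looked up in foundresses and workers that had no part in the call. Foundresses trained to faces against conspecific workers, fitted on these 9 libraries alone, gave 751 contigs past the FDR, 1.29% of those tested, 266 higher and 485 lower. In pattern-trained foundresses against allospecific workers, 731 of these could be tested, 711 (97.3%) had the same direction and 369 (50.5%) also had an unadjusted p under 0.05, with 0 in the opposite direction at that level. Over the 55563 contigs tested in both, 69.4% had the same direction and 12.7% also had such a p. The median log2 fold change of the 731 contigs, signed by the first comparison, was 0.67 in the new wasps, beside 0.76 in the wasps that chose them.

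The other pairing gave a like result. Foundresses trained to faces against allospecific workers gave 3380 contigs, 5.86% of those tested, 1759 higher and 1621 lower. In pattern-trained foundresses against conspecific workers, 3070 of 3276 (93.7%) kept the direction and 1404 (42.9%) also had an unadjusted p under 0.05, 8 being opposite at that level. Over all 55788 contigs tested in both, 70.8% had the same direction and 9.20% also had such a p. Past the FDR in their own right were only 329 contigs for patterns against allospecific and 14 for patterns against conspecific workers, which became 2538 and 111 without F17. Without F17 the first look-up gave 408 of 735 contigs (55.5%), beside 16.4% of all contigs tested in both, with 91.2% in the same direction and a median of 0.46 in the new wasps. The second gave 1472 of 3321 (44.3%), beside 10.9%, with 92.0% in the same direction and a median of 0.43, against 0.55 with F17. Without FW28 and F55 the first gave 1252 of 2211 (56.6%), beside 13%, and the second 1945 of 4345 (44.8%), beside 8.81%. Contigs are not independent of each other, so these shares are descriptions.

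Each brain was placed between the castes by the mean over called contigs of its log2 CPM, with the worker mean at 0 and the mean of the foundresses trained to faces at 1. Each of the 13 wasps was placed on contigs called without it. Foundresses lay at 0.561 (F25), 0.759 (F29), 0.947 (F35), 1.15 (F42) and 0.513 (F55). Among workers FW28 lay at 0.479 and the other 7 between -0.152 (FW44) and 0.202 (FW11). FW28, F55 and F25 thus lay near each other in the middle, with the other foundresses above them and the other workers below. Each value rests on its own list of contigs, so F25, F55 and FW28 cannot be ordered by them. On contigs called without FW28 and F55, FW28 lay at 0.493 and F55 at 0.486.

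Contigs of the 2 directions placed FW28 and F55 differently. On contigs higher in foundresses FW28 was at 0.623, where the other workers reached from -0.138 to 0.144. F55 was at 0.382, where the other foundresses reached from 0.610 (F25) to 1.12. FW28 was thus close to F25, and their separate lists of contigs do not order them. On higher contigs called without FW28 and F55, FW28 was at 0.598 and F55 at 0.385. On contigs lower in foundresses FW28 was at 0.251, close to the highest of the other workers, which reached from -0.170 to 0.266. F55 was at 0.718, inside the range of the other foundresses from 0.507 (F25) to 1.18. This difference between the directions was not tested.

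Pattern-trained foundresses, placed on the 6147 contigs called without them, lay at 1.68 (F17), 0.624 (F3), 0.904 (F34) and 0.679 (F52), above every worker. On higher contigs they reached from 0.652 to 1.41 and on lower contigs from 0.559 to 2.02, F17 being the farthest out on both. With contigs called without FW28 and F55 they lay at 1.34, 0.614, 0.904 and 0.730, FW28 at 0.493 and F55 at 0.486.

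**Figure D5:**
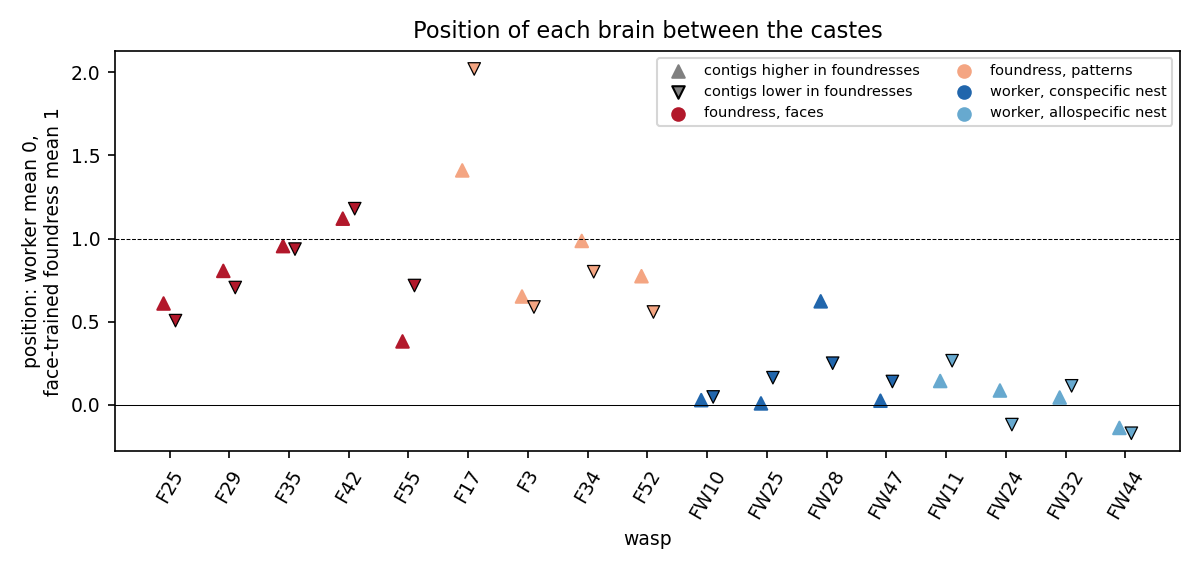
Position of each brain between the worker mean (0) and the mean of foundresses trained to faces (1), for contigs higher (upward triangles) and lower (downward triangles) in foundresses. The 13 wasps trained to faces are placed on contigs called without them; FW28 is at 0.623 on higher and 0.251 on lower contigs, F55 at 0.382 and 0.718.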

How the data were processed

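The deposited table gives whole-number counts of reads on 157691 contigs for 17 wasps, and their totals differ between wasps, as raw counts do. Trimmomatic 0.32, eXpress and Bowtie2 appear in the submitters' processing notes without roles. The handling of reads that match several contigs is not given in the sources used here, so 1 gene may stand as several contigs. Groups came from the titles, and p-values measure the spread between wasps. With edgeR 4.0.16 (R 4.3.3), filterByExpr by group left 59811 contigs with 99.4% of counts. They were scaled by TMM and fitted with 1 mean per group on 13 libraries (10 residual degrees of freedom). The contrast was foundresses minus the mean of both worker groups, tested by quasi-likelihood and adjusted by Benjamini-Hochberg across the whole tested table. The prior count in log2 CPM was 2. An SE is the fold change over the root of F. CPM of pattern-trained foundresses came from TMM over 17 libraries. Contigs named are the 2 per direction of largest change among those past the FDR, with castes apart and a mean of at least 5 CPM in the higher caste. The members, contig lists, FW28 and F55 were chosen with earlier results of these data known. Gene and marker lists were not tested, for want of gene names. No pair of replicate libraries was as close as sampling noise (lowest chi-square per degree of freedom 6.69). Alternatives used DESeq2 1.42.0, limma 3.58.1, other scalings, filters, designs, FDR levels and wasps left out.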

Additional observations from a re-analysis of the deposited data

Results flagged for a closer look

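Of 36 sets of per-wasp values put through Dixon's test, 4 had an extreme wasp, and about 1.8 would be so by chance. FW28 among conspecific workers accounts for 3 of the 4. These are not separate observations: FW28 was already known to lie between the castes, and the measures share contigs. FW28 held 6.53% of its counts in the 15 contigs of largest difference, where the other conspecific workers held 1.56 to 2.26%, and 12.6% in contigs higher in foundresses, against 7.04 to 7.56%. Without the 15 contigs the second share was 6.17% in FW28, against 5.51 to 5.76%. Its position between the castes was 0.479, against 0.0379 to 0.0823. Among foundresses, F29 stood out for PfusTSAr1.0-057966 with 41.7 CPM, where the other 4 had 3.50 to 13.7 CPM.

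The fitted log2 fold change of PfusTSAr1.0-029153 in foundresses was -8.75 against conspecific and -3.56 against allospecific workers. The contig was named for a worker mean of at least 5 CPM, which it reached through conspecific workers FW10, FW28 and FW47. Its choice thus favours a difference between the worker groups, and the values that follow are a description. Conspecific workers stood above allospecific workers by 5.19 on the log2 scale (SE 0.82, adjusted p = 0.0451 in edgeR's quasi-likelihood test). This contrast had 18 calls among 59811 contigs, and PfusTSAr1.0-023698 did not pass in it (4.51, SE 0.84, adjusted p = 0.151). Conspecific worker FW25, with 0.928 CPM of PfusTSAr1.0-029153, lay near the allospecific workers, which had 0.432 to 0.645 CPM.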

How the results depend on the processing

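No paired analysis was possible because no label links a foundress to a worker, every library being its own animal. The 6147 calls became 1493 with all 17 libraries, 1037 with July and 146 with August workers alone (1 of them conspecific, assumed to vary like the other groups), 1714 with conspecific and 3794 with allospecific workers alone, 10231 at an FDR of 0.1, 1445 at 0.01 and 2075 with 1 contig per run; fewer wasps or contigs enter some of these. Leaving out 1 wasp gave 2798 to 7270. DESeq2's Wald test (7539), limma-voom (5829), with quality weights (7915), no low-count filter (7236) and the other scalings, filters and designs stayed within 1.5 times, as did 8028 without FW28 and F55. Scaling by library totals moved the share of higher calls to 32.9%, against 51.4%, with a median change over all contigs of -0.073 log2. Without FW28 and F55 the conspecific count was 4017, and 1252 contigs carried over to pattern-trained foundresses in the first look-up, against 1714 and 369. No named contig reversed, and 8 of 111 alternative values missed the FDR. Differences in contigs detected (2702 to 3869) and in the top share (2.33 to 3.99 points) kept an exact p under 0.05 without each wasp, and the counts of 0 for presence in 1 caste stayed 0 in the alternatives run. Depth limits the fold of the 2 lower contigs given by identifier, which rest on 3 counts in foundresses.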
